A study of Mus musculus with 4 samples.

Results

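The caveolin and cavin genes were described across the cells of mouse hearts. The 7 members were named in advance as the 3 caveolins (Cav1, Cav2 and Cav3) and the 4 cavins (Cavin1, Cavin2, Cavin3 and Cavin4), and they were 7 of the 29245 gene columns in the deposited count tables. All 7 were found by matching Ensembl identifiers to symbols. They were chosen by a list drawn up with their measured levels and shares of positive wells by animal, fraction and cell class already known, so those levels are given as a description, without a test.

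Hearts of C57BL/6 mice were taken, and the polyadenylated RNA of single cells in the wells of 4 chips was sequenced and counted as unique molecular identifiers (UMIs). Wild-type hearts (WT) and hearts labelled KO, deficient in Mst1/2, gave 2 chips each. The chips' well records name animals WT1, WT2, KO1 and KO2 and split each into wells marked CM, read here as the cardiomyocyte fraction, and wells marked NCM, the non-cardiomyocyte fraction, which low-speed spins had separated. All 4 animals share the strain and the protocol. No source used here gives the deleted exons, the cells in which they were deleted, the animals' ages or any treatment. Each fraction of each genotype was on a chip of its own, so within a fraction the genotype and the chip cannot be told apart. Levels are given in UPM, the number of UMIs of a gene per 1000000 UMIs outside the mitochondrial (mt-) and hemoglobin (Hba-, Hbb-) genes, summed over the wells of an animal. The kinases behind the label were present as RNA in all 4 animals: Stk4 (Mst1) stood at 53.1, 47.3, 45.8 and 37.5 UPM in the NCM wells of WT1, WT2, KO1 and KO2, and Stk3 (Mst2) at 23.5, 38.6, 29.0 and 26.3. A deleted gene can still give polyadenylated RNA, and without the position of the deletion these values do not check the labels. WT and KO below are the labelled genotypes.

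Of 4275 wells with a cell, 3990 held at least 10000 UMIs and 300 genes and were kept, with 692 to 747 NCM wells and 210 to 385 CM wells per animal. The 4 chips shared between 60 and 400 well barcodes per pair. The mt- genes took 7.45% and 11.2% of the NCM UMIs of WT1 and WT2, against 58.1% and 36.5% in KO1 and KO2, and hemoglobin genes took between 1.19% and 12%. Levels were compared within a gene only, because UMIs were not scaled by gene length. Wells were clustered without the 7 members into 17 clusters. A cluster was named from fixed marker genes where at least 3 were among its 30 leading genes. Each had to be 2-fold or more above the other wells of the same chips. In cluster 2, with 537 wells, no cardiomyocyte marker reached this. It was named cardiomyocyte from 5 markers that did so against the wells of all chips, a weaker ground. Clusters 0, 5 and 8 had too few markers at that fold and kept their numbers. The largest of all was cluster 0, with 693 wells. Its leading genes were Ankrd29, Gpr183 and Pygl, followed by several cardiomyocyte genes such as Tnnc1 and Pln, and the 12 cardiomyocyte markers made up 0.476% to 0.973% of its UMIs. Endothelial-like NCM wells lay mostly in cluster 1 and endothelial-like CM wells in cluster 7, and of the cardiomyocyte-like CM wells cluster 9 held 35, 90, 3 and 48 in WT1, WT2, KO1 and KO2 and cluster 2 the rest. Across the 20 wells of negative controls and the 20 of positive controls no member had more than 2 UMIs. These wells held a median of only 128.5 and 174 UMIs, in that order, too few to measure a background level.

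Caveolae are flask-shaped pits of the plasma membrane that are abundant in endothelium, muscle and fat. Caveolins are hairpin proteins that sit in the inner leaflet of the membrane, and cavins are soluble proteins that coat the pit from the cytosol and hold its shape. In the heart, caveolae of the endothelium are known for transport across the vessel wall and for holding the nitric oxide synthase in check, whereas those of cardiac muscle are known for organising ion channels and receptors and for a part in the building of transverse tubules. Cav1 drives pit formation in most tissues, Cav2 joins it in mixed oligomers, and Cav3 is the muscle form. Cavin1 is needed for caveolae in all these tissues, Cavin2 shapes the membrane curve and is rich in endothelium, Cavin3 binds to the coat through Cavin1 and is known from signalling studies, and Cavin4 is the muscle form.

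In the mm10 build (GRCm38), with the annotation of GENCODE, Cav2 (chr6:17281185-17289115) and Cav1 (chr6:17306335-17341452) lie on the plus strand with 17219 bases between them. Cav3 lies far along the same chromosome (chr6:112459505-112472872, plus strand), where no annotated gene overlaps it. Cavin1 lies at chr11:100956733-100970887 on the minus strand, Cavin2 at chr1:51289126-51302960 on the plus strand, Cavin3 at chr7:105480083-105482300 on the minus strand and Cavin4 at chr4:48663514-48673502 on the plus strand. The non-coding gene Gm15581 overlaps both Cav1 and Cav2 on the other strand, and 9330175M20Rik overlaps Cavin2 in the same way, as does the unclassified transcript Gm45667 with Cavin3. The strand setting of the counting is not given in the sources used here, so reads of these partners cannot be told apart from those of the 4 genes.

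The stretch of 250 bases before the RefSeq start (GRCm38.p6) is printed for 4 members because they form the contrasts of the results: the neighbours Cav1 and Cav2 shared their highest cell class, and the muscle forms Cav3 and Cavin4 shared theirs but differed in the non-cardiomyocyte wells. Capitals mark the E-box letters CANNTG, which read the same on both strands. Each is written 5′ to 3′ on the gene's strand.
Cav1 (chr6:17306085-17306334): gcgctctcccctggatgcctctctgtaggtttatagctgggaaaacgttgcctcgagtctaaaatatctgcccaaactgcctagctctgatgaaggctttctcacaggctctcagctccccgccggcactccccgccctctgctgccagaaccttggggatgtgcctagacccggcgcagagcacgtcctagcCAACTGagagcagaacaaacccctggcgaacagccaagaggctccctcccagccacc
Cav2 (chr6:17280935-17281184): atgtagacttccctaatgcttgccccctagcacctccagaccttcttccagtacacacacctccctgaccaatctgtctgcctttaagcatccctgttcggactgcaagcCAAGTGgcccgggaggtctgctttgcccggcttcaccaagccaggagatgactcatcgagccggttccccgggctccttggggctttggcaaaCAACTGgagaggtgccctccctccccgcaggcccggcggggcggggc
Cav3 (chr6:112459255-112459504): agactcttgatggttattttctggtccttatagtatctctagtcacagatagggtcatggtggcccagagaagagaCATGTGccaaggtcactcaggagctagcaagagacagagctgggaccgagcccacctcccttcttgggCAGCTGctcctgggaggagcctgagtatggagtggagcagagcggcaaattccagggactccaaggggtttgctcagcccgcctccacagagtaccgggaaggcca
Cavin4 (chr4:48663264-48663513): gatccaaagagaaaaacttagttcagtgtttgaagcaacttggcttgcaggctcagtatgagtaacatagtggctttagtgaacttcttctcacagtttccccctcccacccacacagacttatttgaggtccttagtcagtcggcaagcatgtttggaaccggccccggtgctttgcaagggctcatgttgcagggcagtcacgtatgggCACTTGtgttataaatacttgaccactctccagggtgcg

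An E-box was present in 66.2% of the 32851 windows of this length in the RefSeq table, so its presence in these 4 windows does not set them apart. Counted back from the start, Cav3 held it at -174 and -106, Cav2 at -140 and -47, Cav1 at -57 and Cavin4 at -39. The letters TATAAA, read on both strands, were present in 12.4% of all windows and lay at -30 in Cavin4 and at -221 in Cav1. The GC box GGGCGG, also read on both strands, was present in 32.7% of all windows and lay at -9 in Cav2 and at -118 in Cav1, but in neither muscle form. RefSeq windows were matched for 6 of the 7 members.

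Cav1, the scaffold of non-muscle caveolae, had its highest level in endothelial-like NCM wells, at 814, 958.5, 1020 and 670 UPM in WT1, WT2, KO1 and KO2 (mean 866 ± 156, SD, n = 4 animals). Every animal stood above its own fibroblast-like wells, where Cav1 was at 56.4, 56.2, 163 and 112. The next class was the endothelial-like CM wells, at 434 ± 250 (SD, n = 4), whose range from 220 to 782 overlapped that of the NCM wells. After thinning each well to 5000 UMIs outside mt- and hemoglobin genes, Cav1 was found in 71.6%, 71.4%, 71.0% and 63.8% of the endothelial-like NCM wells (82.1%, 89.0%, 85.2% and 82.8% before thinning, at a median depth of 24160 to 54740 UMIs). The same share in macrophage-like NCM wells, given for comparison and not as a background, was 5.83%, 7.78%, 43.5% and 26.7% (47.6%, 55.6%, 58.3% and 73.3% before thinning, at a median depth of 41760 to 206600 UMIs). Thinning left out 6 endothelial-like and 2 macrophage-like wells as too shallow. The macrophage-like share was thus higher in both KO animals than in both WT animals, and the 12 endothelial markers moved with it: their sum in those wells was 0.036%, 0.048%, 0.305% and 0.194% of UMIs. The part of endothelial RNA in the Cav1 of other classes was not tested.

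Cav2, the partner of Cav1, was highest in the same class with 240, 237, 183 and 104 UPM in endothelial-like NCM wells (mean 191 ± 63.5, SD, n = 4). In fibroblast-like NCM wells it was at 3.25, 5.87, 39.4 and 25.6, and in cardiomyocyte-like CM wells at 3.68, 3.51, 24.5 and 5.92. Both low classes were highest in KO1, the animal whose summed endothelial markers were also the highest in each of them.

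Among the cavins, Cavin2 was highest in endothelial-like NCM wells, of the 7 classes with at least 20 wells in every animal. It spread widely there between animals, with 1637, 1394, 706 and 511 UPM (mean 1062 ± 539, SD, n = 4). Cavin1, the coat protein common to all caveolae, led in the same class with 470, 501, 572 and 533 UPM (mean 519 ± 43.7), and its 4 animals lay close together. Both were lowest in macrophage-like CM wells, at 39.6 ± 31.4 for Cavin2 and 33.5 ± 12.5 for Cavin1. For Cavin1 the second class was cluster 0, at 391 ± 204, followed by fibroblast-like NCM wells at 242 ± 117, and each neighbour in that order overlapped the next.

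Cavin3 did not separate endothelial-like from fibroblast-like cells. Its level was 898, 686, 322 and 445 UPM in endothelial-like NCM wells and 464, 537, 415 and 566 in fibroblast-like NCM wells, so both KO animals had more in fibroblast-like wells and both WT animals more in endothelial-like wells. After thinning, 63.3%, 55.7%, 48.3% and 60.8% of fibroblast-like wells held Cavin3, against 52.2%, 46.1%, 31.4% and 40.2% of endothelial-like wells, which puts the fibroblast-like share above in each of the 4 animals. Before thinning the shares were 90.5%, 86.1%, 79.8% and 85.8% against 83.6%, 68.2%, 50.4% and 69.5%, in the same order. Below these classes, macrophage-like NCM wells held 43.8 ± 22.1 UPM.

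**Figure D1:**
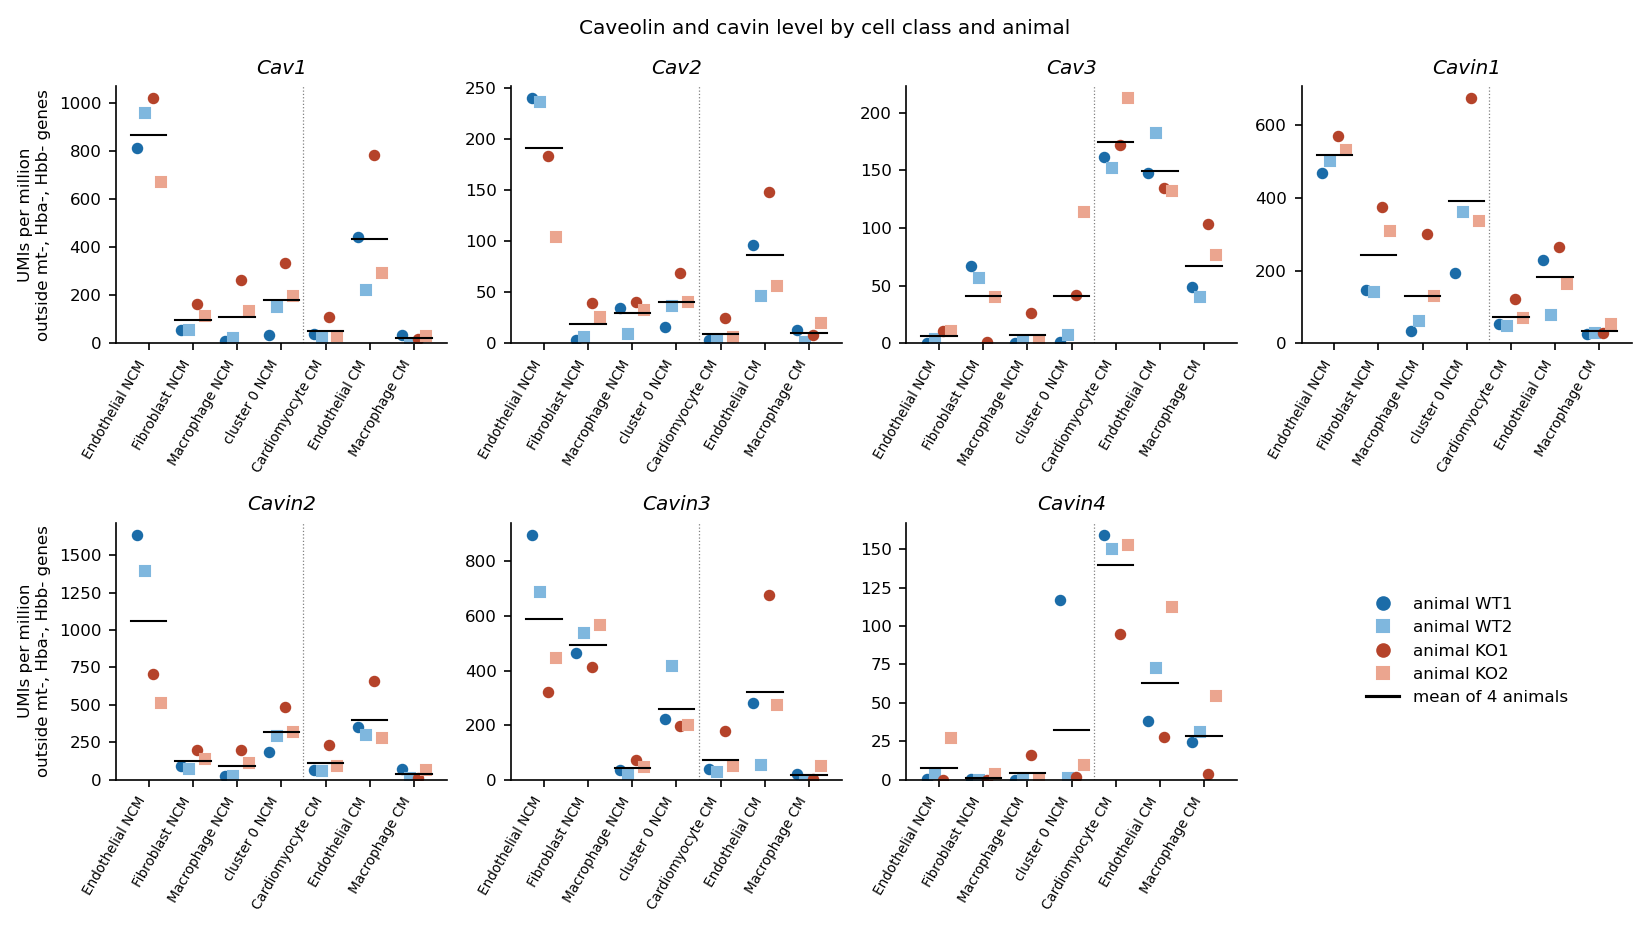
Level of each member (vertical axis, UPM, linear from 0) in the 7 classes with at least 20 wells in every animal; points are the 4 animals, black lines their mean, and the dotted line separates NCM from CM wells. Cav1, Cav2, Cavin1, Cavin2 and Cavin3 have their highest mean in endothelial-like NCM wells, and Cav3 and Cavin4 in cardiomyocyte-like CM wells.

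The order of classes, above and below, covers only the 7 with at least 20 wells in every animal. Smaller classes are given with their well counts only. Pericyte-like NCM wells (7 to 14 per animal) held Cavin2 at 938, 1204, 669 and 315 UPM, and endocardial-like NCM wells (12 to 22 per animal) held it at 482, 1212, 221 and 450. Their Cav1 was lower than in the endothelial-like wells of the same animal throughout: 58.5, 248, 162 and 132 in pericyte-like wells and 116, 366, 440 and 205 in endocardial-like wells. Cavin1 in pericyte-like wells was at 106, 270.5, 868 and 578, above the endothelial-like level in both KO animals only. Lymphatic-like NCM wells (2 to 4 per animal) had mean levels of 1151 for Cavin2 and 671 for Cavin3, above the endothelial-like means of 1062 and 588.

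The class that held most of a member's UMIs differed between members. Endothelial-like wells were 9.68%, 21.9%, 35.0% and 17.1% of the NCM wells of WT1, WT2, KO1 and KO2, and they held 59.3%, 71.7%, 59.7% and 39.9% of the Cav1 UMIs. Of the Cavin3 UMIs they held 18.8%, 29.3%, 33.9% and 19.1%, and fibroblast-like wells held 63.5%, 49.5%, 34.1% and 44.0%. Of all UMIs outside mt- and hemoglobin genes, endothelial-like wells held 6.91%, 15.1%, 30.5% and 14.7% and fibroblast-like wells 45.1%, 32.5%, 23.9% and 26.6%. In KO1 the Cavin3 shares of the 2 classes were about equal.

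**Figure D2:**
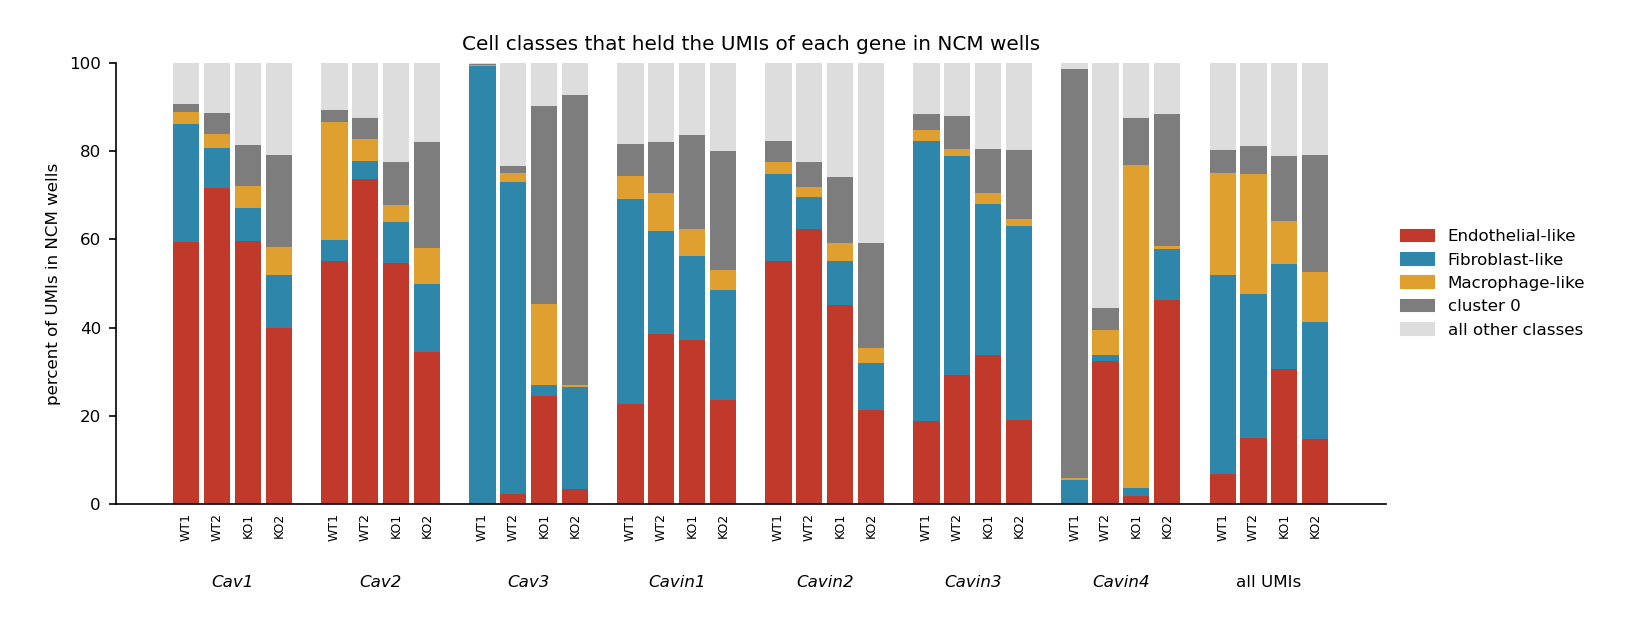
Percent of each gene's UMIs in NCM wells (vertical axis) that lay in endothelial-like, fibroblast-like and macrophage-like wells, cluster 0 and all other classes, for each animal; the last group is all UMIs outside mt- and hemoglobin genes. Endothelial-like wells hold 39.9% to 71.7% of Cav1, and fibroblast-like wells hold 99.3% of the Cav3 of WT1 but 2.48% of that of KO1.

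Several members were often found in the same endothelial-like well. Of 593 endothelial-like NCM wells thinned to 5000 UMIs, 413 held Cav1, 394 Cavin2, 383 Cavin1, 234 Cavin3 and 208 Cav2. Both Cav1 and Cavin2 were found in 284 wells, and both Cav1 and Cav2 in 153. That is 73.6% of the Cav2 wells, beside Cav1 in 413 of all 593 wells. Pearson's r of the log2 counts (plus 1) across these wells was 0.035 for Cav1 with Cavin2 and 0.14 for Cav1 with Cav2. A well held on average 2.99, 2.94, 2.69 and 2.54 of the 5 non-muscle members in WT1, WT2, KO1 and KO2, against 1.39, 1.26, 1.82 and 1.78 in fibroblast-like wells. All 4 endothelial-like values were above all 4 fibroblast-like values. The wells of an animal share its library, and no relation between members across wells is drawn from these counts.

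The muscle members stood highest on the CM chips. In cardiomyocyte-like CM wells Cav3 was at 162, 152, 172 and 212.5 UPM in WT1, WT2, KO1 and KO2 (mean 175 ± 26.5, SD, n = 4) and Cavin4 at 159, 150, 95.01 and 153 (mean 139 ± 29.9). KO1 was the lowest animal for Cavin4 and not for Cav3. The cardiomyocyte-like wells of KO1 were also the shallowest, with a median of 19830 UMIs outside mt- and hemoglobin genes against 127500 in KO2, and after thinning 15.1% of them held Cav3 and 10.3% Cavin4, against 29.3% to 42.3% and 29.8% to 34.7% in the other 3 animals (before thinning 22.3% and 16.2%, against 51.7% to 75.7% and 52.6% to 63.2%). Of 704 thinned cardiomyocyte-like wells, 225 held Cav3, 197 Cavin4 and 63 both.

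Among the other cells of the CM chips, the endothelial-like wells overlapped the cardiomyocyte-like wells in both Cav3 and Cavin4, and the macrophage-like wells were lower in both. In endothelial-like CM wells Cav3 stood at 148, 183, 134 and 132 UPM, which is 91.5%, 120%, 78.1% and 62.1% of the level in the cardiomyocyte-like wells of the same animal. Cavin4 in the same wells was at 23.9%, 48.3%, 29.1% and 73.5% of the cardiomyocyte-like level. In WT1, WT2 and KO1, but not in KO2, the Cav3 share was above the Cavin4 share. In macrophage-like CM wells Cav3 was at 30.1%, 26.6%, 59.98% and 35.9% of the cardiomyocyte-like level, and Cavin4 at 15.3%, 20.6%, 3.94% and 35.4%. The fewer fibroblast-like CM wells (16 to 27 per animal) held Cav3 at 121%, 63.0%, 8.01% and 66.3%, and Cavin4 at 45.3%, 27.3%, 0.967% and 70.5%.

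The 12 cardiomyocyte markers, which include Myh6 and Tnnt2, were present in every class of the CM chips. They made up 4.59%, 7.45%, 2.85% and 6.96% of UMIs in endothelial-like CM wells, or 47.7%, 71.2%, 44.7% and 74.3% of their share in cardiomyocyte-like wells. In endothelial-like NCM wells the same markers were at 0.174%, 0.375%, 0.320% and 0.641%, and Cav3 was at 0.513, 3.89, 11.02 and 10.9 UPM. In WT1 a single endothelial-like CM well held 70.8% of the Cav3 UMIs of its class, and without that well the level was 50.35 UPM. With every well given the same weight the mean Cav3 level of the class over the 4 animals was 125. The part of free cardiomyocyte RNA in these wells was not tested.

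**Figure D3:**
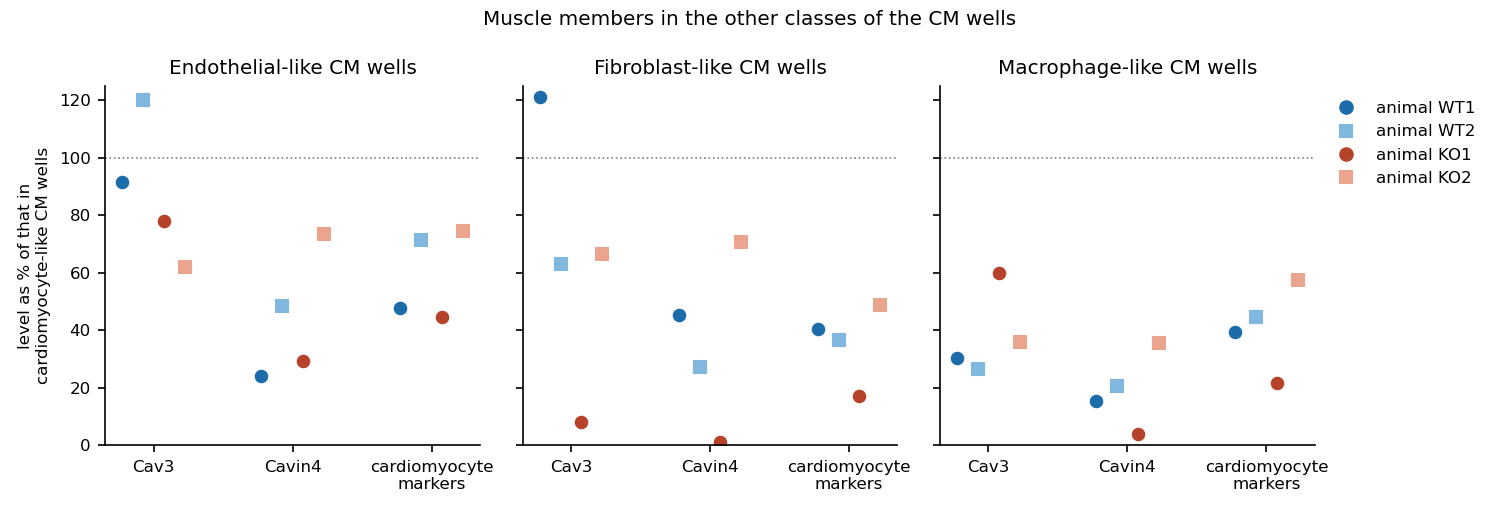
Level of Cav3, Cavin4 and the summed 12 cardiomyocyte markers in endothelial-like, fibroblast-like and macrophage-like CM wells, as a percent of the level in cardiomyocyte-like CM wells of the same animal (vertical axis, dotted line at 100%); points are animals. Cav3 reaches 62.1% to 120% in endothelial-like wells, and Cavin4 23.9% to 73.5%.

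In the NCM wells of the WT animals most Cav3 lay in fibroblast-like wells. Fibroblast-like wells held 99.3% of the Cav3 UMIs of WT1 and 70.8% of those of WT2, against 2.48% in KO1 and 23.2% in KO2. The level in these wells was 67.3, 56.6, 1.43 and 40.0 UPM, both WT animals being above both KO animals. Without the leading well of each animal it was 49.2, 21.1, 0.636 and 23.7, and the groups overlapped. Cav3 was concentrated in few wells: 21 of 158, 6 of 122, 0 of 89 and 9 of 120 fibroblast-like wells held at least 10 Cav3 UMIs, a cut chosen after seeing the data. These wells held 2546 of the 2570 Cav3 UMIs of the class in WT1, 1716 of 1725 in WT2 and 554 of 574 in KO2. In WT2 a single well held 65.3% of them.

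The wells with at least 10 Cav3 UMIs carried fibroblast markers and few cardiomyocyte markers. Their median share of the 12 cardiomyocyte markers was 0.034%, 0.172% and 0.146% of UMIs in WT1, WT2 and KO2, against 0.031%, 0.065% and 0.370% in the fibroblast-like wells of the same animals without a Cav3 UMI. Their median share of the 12 fibroblast markers was 4.51%, 2.58% and 3.12%, against 4.13%, 4.19% and 3.398%. Cavin4, the other muscle form, was found in 0 of 21, 0 of 6 and 1 of 9 of them. Oxtr, the gene that follows Cav3 on the chromosome, had 0 UMIs in all of them. Depth differed: the median well with at least 10 Cav3 UMIs had 315500, 830600 and 92400 UMIs outside mt- and hemoglobin genes, against 140600, 128800 and 76340 for wells with none, and 45800 in KO1. After thinning to 5000 UMIs, 6.96%, 2.46%, 0% and 4.17% of fibroblast-like wells held Cav3 (25.9%, 12.3%, 5.62% and 15% before thinning). KO1, which had no such well, was also the shallowest animal, and the part of depth was not tested.

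**Figure D4:**
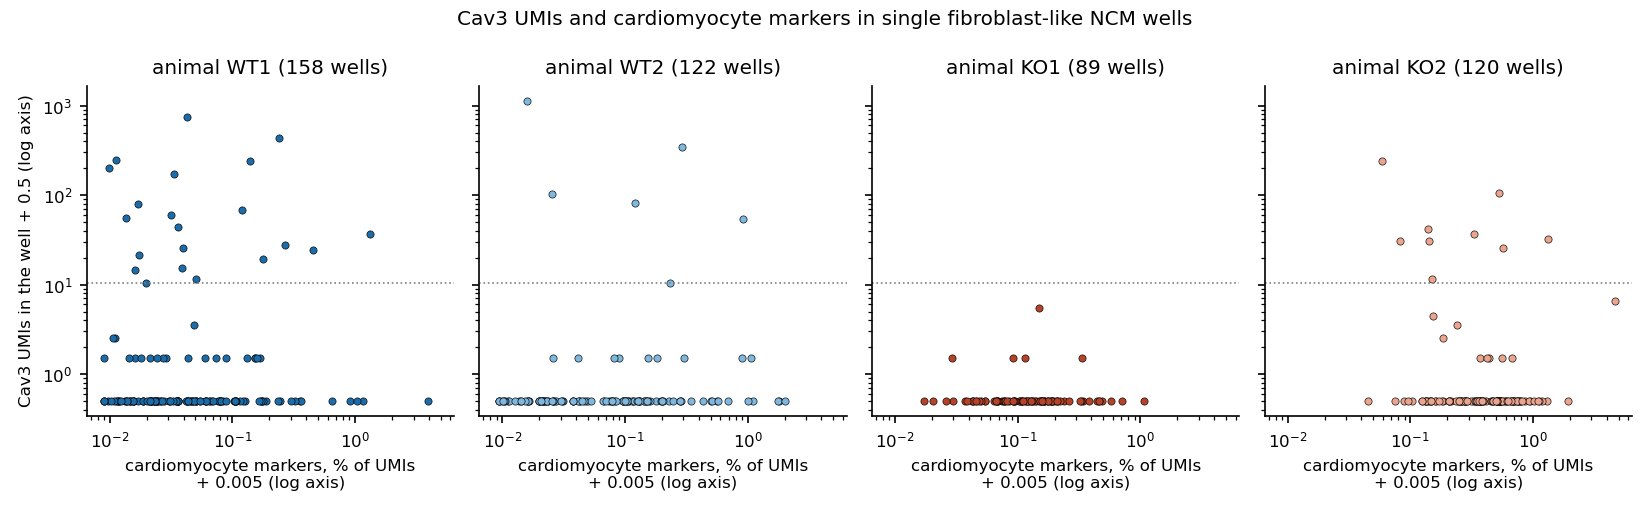
Cav3 UMIs (vertical axis, plus 0.5, log scale) against the share of the 12 cardiomyocyte markers (horizontal axis, percent of UMIs plus 0.005, log scale) in each fibroblast-like NCM well; the dotted line marks 10 UMIs and each panel is 1 animal. There were 21, 6, 0 and 9 wells at or above the line in WT1, WT2, KO1 and KO2, spread over the range of marker shares.

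Elsewhere in the NCM wells some levels of the muscle members rested on single wells. Cluster 0 of KO2 held Cav3 at 114 UPM, of which 1 well gave 1482 UMIs, and without that well the level was 10.46. In KO1 the cluster stood at 42.0 and, without its leading well, at 11.4. Cavin4 in all NCM wells of WT1 was at 6.70 UPM, and 92.3% of it came from 1 well. In KO2 it was at 8.57 UPM and more spread, with 54 positive wells and 20.95% of its UMIs in the leading well. In fibroblast-like NCM wells Cavin4 was at 0.785, 0.0656, 0.158 and 3.76, from 30, 2, 1 and 54 UMIs. The values of WT2 and KO1 are under the limit of 3 counts, which is 0.0985 and 0.475 UPM in these wells.

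Likeness was measured as Pearson's r of the log2 level (plus 1) over the 28 sums of 7 classes and 4 animals, among 8364 genes with a mean of at least 10 UPM. The sums share animals and chips, so r is a description. The classes were also named from fixed markers, and Egfl7, Emcn and Eng below are among the endothelial ones. Cav1 was most like Ecscr (0.94), Cavin2 (0.93) and Adgrl4 (0.93), of which Ecscr and Adgrl4 are endothelial surface proteins. Cavin2 was most like Egfl7 (0.95), Depp1 (0.95) and Tmem88 (0.94), and Cav2 most like Ctla2a (0.94), Emcn (0.92) and Rgcc (0.92). Cavin1 was most like Pls3 (0.93), an actin-bundling protein, Aqp1 (0.92) and Eng (0.91). Cavin3 was most like Sparc (0.94) and Lama4 (0.93), which encode proteins of the extracellular matrix, and Ppic (0.92). Cavin4 was most like Itgb1bp2 (0.93), a muscle chaperone known as melusin, Pdk4 (0.90) and Ppp1r14c (0.90). Cav3 was most like Adprhl1 (0.88), Cystm1 (0.87) and Cacna2d1 (0.85), a calcium channel subunit. Cav3 and Cavin4 did not appear among each other's nearest 3 genes, and r between them was 0.61.

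The comparison of KO with WT asked how the members differed with the labelled loss of Mst1/2 in each fraction and class. UMIs were summed per animal and tested across all genes by edgeR's quasi-likelihood test with Benjamini-Hochberg adjustment. No member passed in any comparison, and 0% of 17031 genes in NCM wells, 0% of 14448 in CM wells, 0% of 12616 in endothelial-like NCM wells, 0% of 14169 in fibroblast-like NCM wells and 0% of 12456 in cardiomyocyte-like CM wells had an adjusted p under 0.05. In the same order, DESeq2 called 611, 54, 320, 357 and 104 genes, and 2082, 505, 1124, 1425 and 578 lay below 0.05 in edgeR before adjustment. With 2 animals per genotype an exact permutation test of a single gene cannot go below p = 0.333, so the values are given with the overlap of the animals. Overlap was read from UPM, whereas the fitted differences used edgeR's TMM scaling. Scaling by total UMIs, as in UPM, raised the median log2 difference of all genes by 0.117 (CM) to 0.185 (endothelial-like).

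Over all NCM wells the KO animals stood higher in Cav1, at 522 and 247 against 94.8 and 201 UPM in WT1 and WT2. The fitted log2 difference was 1.18 (SE 0.46, adjusted p = 0.392, edgeR). Cavin1 was at 142 and 196 in WT and 470 and 330 in KO, a log2 difference of 1.07 (SE 0.27, adjusted p = 0.329, edgeR), and DESeq2 called it with an adjusted p of 0.0421. Both KO animals were above both WT animals for 3 of the 7 members (Cav1, Cavin1 and Cavin2), beside 26.7% of all genes tested, and below for 0 of 7, beside 18.9%. For Cavin2 the margin was narrow, at 205 and 336 UPM in WT and 478 and 353 in KO. Its leading well held 18.4%, 7.75%, 2.22% and 18.3% of the UMIs of WT1, WT2, KO1 and KO2. Overlap without these wells was not tested. The endothelial markers stood at 0.206% and 0.424% of UMIs in WT and 0.699% and 0.357% in KO, so they overlapped between the genotypes, and KO1 was the highest animal both for Cav1 and for the markers. Their part in the result was not tested.

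Within endothelial-like NCM wells the direction differed between members. Cavin2 was at 1637 and 1394 UPM in WT and at 706 and 511 in KO, without overlap, with a log2 difference of -1.52 (SE 0.31, adjusted p = 0.526, edgeR). Without the leading well of each animal the 4 levels were 1326, 1252, 677 and 474. After thinning, the gene was found in 70.2% and 73.4% of the WT wells and in 67.4% and 54.3% of the KO wells, so the shares did not overlap either (86.6%, 90.3%, 80.4% and 81.2% before thinning). When genes with low counts were kept in the edgeR fit, the adjusted p was 0.00631. In that fit 112 of 21164 genes passed as higher in KO and 94 as lower. Cavin3 differed by -1.22 (SE 0.39, adjusted p = 0.526, edgeR) and Cav2 by -0.94 (SE 0.42, adjusted p = 0.579, edgeR). Cav2 was found after thinning in 47.8% and 47.4% of WT wells and 29.8% and 23.6% of KO wells (77.6%, 79.2%, 49.6% and 53.9% before thinning). Cav1, with a log2 difference of -0.27 (SE 0.32), and Cavin1, with 0.0022 (SE 0.32), lay near 0.

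Both KO animals were below both WT animals in 3 of the 7 members (Cav2, Cavin2 and Cavin3), beside 16.1% of all genes tested, and above in 2 of 7 (Cav3 and Cavin1), beside 24.7%. Without the leading well of each animal Cavin1 was at 465 and 466.5 UPM in WT and 561 and 434 in KO, and the groups overlapped. The summed endothelial markers of these wells were also lower in KO, at 1.31% and 1.02% of UMIs against 1.62% and 2.04%. The mt- share was 63.2% and 41.8% in KO and 8.16% and 13.2% in WT. Few KO wells were under 30% mt- UMIs, 3 of 250 in KO1 and 11 of 128 in KO2, against 65 of 67 and 143 of 154 in WT. Among those wells the difference of Cavin2 was -2.16 and that of Cavin3 was 0.23. The part of the mt- share in the result was not tested.

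In fibroblast-like NCM wells the KO animals stood higher in 4 of the 5 members that were highest in endothelial-like wells, Cavin3 being the exception. Cav1 differed by 1.12 (SE 0.35), Cav2 by 2.65 (SE 0.74) and Cavin1 by 1.08 (SE 0.27), each with an adjusted p of 0.449 by edgeR. DESeq2 called Cav2, with an adjusted p of 0.0134. Cavin1 was at 146 and 141 UPM in WT and 374 and 308 in KO, and after thinning it was found in 40.5%, 40.2%, 56.2% and 58.3% of wells (84.2%, 82.0%, 89.9% and 95.8% before thinning). Cavin2 also had both KO animals above, with a log2 difference of 0.89 (SE 0.33, adjusted p = 0.464, edgeR), but in KO2 a single well held 1274 UMIs. Without the leading well of each animal Cavin2 was at 65.9 and 63.7 in WT and 169 and 55.7 in KO, and the groups overlapped.

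Both KO animals were above both WT animals for 4 of the 7 members (Cav1, Cav2, Cavin1 and Cavin2), beside 23.5% of all genes tested, and below for 1 of 7 (Cav3), beside 19.1%. Cavin3 differed by -0.18 (SE 0.28). The endothelial markers in these wells stood at 0.104% and 0.084% of UMIs in WT and 0.230% and 0.152% in KO. They were higher in both KO animals, as were Cav1 and Cav2, and their part in the result was not tested.

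In all CM wells both KO animals were above both WT animals for 3 of the 7 members (Cavin1, Cavin2 and Cavin3), beside 15.8% of all genes tested, and below for 0 of 7, beside 12.7%. In cardiomyocyte-like CM wells they were above for 5 of 7 (Cav2, Cav3, Cavin1, Cavin2 and Cavin3), beside 20.2%, and below for 0 of 7, beside 16%. Without the leading well of each animal Cav3 was at 149 and 138 UPM in WT and 135.5 and 205 in KO, and the groups overlapped. In wells under 30% mt- UMIs, of which KO1 had 2, KO2 25, WT1 34 and WT2 66, 1 of the 7 members (Cavin2) was higher in KO, and Cav1 (-1.18), Cav2 (-0.26), Cav3 (-0.33), Cavin1 (-0.51) and Cavin3 (-0.41) turned. The mt- share of all cardiomyocyte-like wells was 48.1% and 40.9% in WT and 60.7% and 38.5% in KO. Over all these wells the muscle forms had the smallest differences of the 7: Cav3 by 0.15 (SE 0.36, adjusted p = 0.963, edgeR) and Cavin4 by -0.44 (SE 0.43, adjusted p = 0.940, edgeR). The largest difference of the tested members with an unadjusted p under 0.05 was that of Cavin3, at 1.55 (SE 0.56, adjusted p = 0.937, edgeR), from 38.6 and 27.5 UPM in WT to 179 and 52.2 in KO. In KO1 the endothelial markers were at 0.124% of UMIs in these wells against 0.042% to 0.054% in the other 3 animals. Without KO2, Cavin3 differed by 2.10 (adjusted p = 0.0455, edgeR), and without KO1 by 0.67 (adjusted p = 1.00, edgeR).

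**Figure D5:**
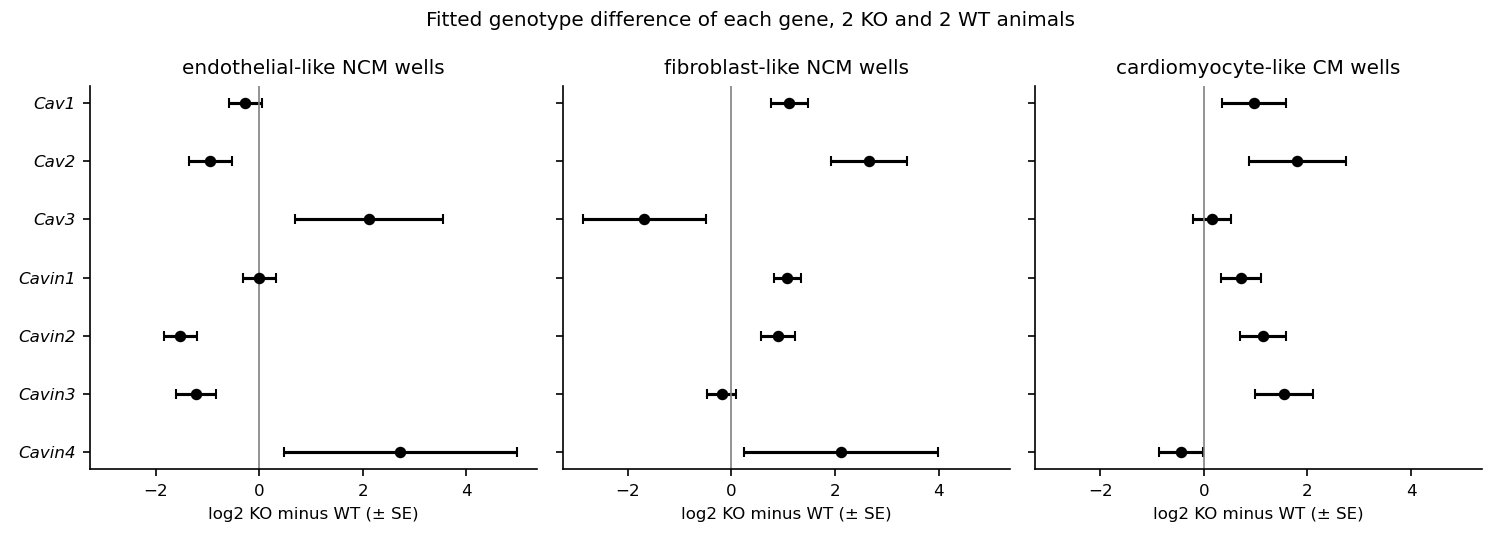
Fitted log2 difference of KO minus WT (horizontal axis, bars are the SE) for each member in endothelial-like NCM, fibroblast-like NCM and cardiomyocyte-like CM wells, 2 animals per genotype. In endothelial-like wells Cavin2 lies at -1.52, and in fibroblast-like wells Cav2 lies at 2.65; no value passed the adjusted threshold in edgeR.

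The genotype difference of the CM wells was compared with that of the NCM wells in 1 fit over both fractions, with the animal as a block. No member passed, and 0% of 17891 genes did (139 were called by DESeq2, and 892 lay below 0.05 in edgeR before adjustment). The widest member difference was 1.86 for Cavin3 (SE 0.63, adjusted p = 0.953, edgeR). A second fit, added after seeing the data, compared fibroblast-like with endothelial-like NCM wells. Here too 0% of 14841 genes passed in edgeR, with 259 called by DESeq2 and 785 below 0.05 in edgeR before adjustment. The genotype difference was higher in fibroblast-like wells by 2.38 for Cavin2 (SE 0.31, adjusted p = 0.157, edgeR) and by 3.65 for Cav2 (SE 0.63, adjusted p = 0.297, edgeR). DESeq2 called both, with adjusted p = 0.00048 for Cavin2 and 2.62e-05 for Cav2. For Cav3, which rests on few wells in both classes, the difference was -5.63 (SE 2.07, adjusted p = 0.930, edgeR), and DESeq2 gave an adjusted p of 0.0115.

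Other genes of caveolae and of the membranes that carry them were read from 4 fixed lists, none of which had a member past edgeR's adjusted threshold in any of the 5 comparisons. Of 9 genes of endothelial caveolae and lipid uptake, 6 were below WT in both KO animals in endothelial-like NCM wells and 1 above, beside 16.1% below and 24.7% above among all genes tested, with a median log2 difference of -0.76 beside -0.03 over all genes. Fabp4, a fatty acid binding protein that is also among the endothelial markers, was at 7863 and 9432 UPM in WT and 6380 and 4685 in KO (log2 difference -0.84, SE 0.26, adjusted p = 0.526, edgeR). Gpihbp1, which anchors lipoprotein lipase on capillaries, was at 4045 and 5320 in WT and 2532 and 3651 in KO. Cd36, a fatty acid transporter, was at 2001 and 2670 in WT and 1982 and 1290 in KO. In fibroblast-like wells 5 of these 9 genes were above WT in both KO animals and 0 below (23.5% and 19.1% of all genes), with a median of 1.09 beside 0.0041 over all genes.

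Of the 10 partners that shape caveolae, 8 were tested in endothelial-like NCM wells, where 4 were above and 2 below in both KO animals (24.7% and 16.1% of all genes), with a median log2 difference of 0.67 beside -0.03 over all genes. Flna, an actin cross-linker that binds Cav1, was at 194 and 147 UPM in WT and 234 and 399 in KO. Ehd4 and Ehd1 belong to the family of membrane-bending ATPases at the neck of the pit. Ehd4 was at 131 and 236 in WT and 270 and 289 in KO, and Ehd1 at 37.1 and 25.6 in WT and 111 and 50.9 in KO. Of the 12 genes of the muscle membrane and transverse tubules, 4 were below and 0 above in cardiomyocyte-like CM wells (16% and 20.2% of all genes), with a median of -0.21 beside -0.02 over all genes. Dmd, the dystrophin gene, was at 151 and 195 UPM in WT and 230.5 and 178 in KO there, and Sgca, a sarcoglycan, at 177 and 142 in WT and 103 and 136 in KO. Of the 5 raft scaffolds outside caveolae, 1 was above and 0 below in these wells (20.2% and 16% of all genes), and in endothelial-like NCM wells 2 were above and 0 below (24.7% and 16.1%). In endothelial-like wells Flot1, a flotillin, was at 70.8 and 79.2 UPM in WT and 114 and 53.6 in KO, with overlap, as was Erlin1, at 5.13 and 10.6 in WT and 15.1 and 7.95 in KO. Stom, the stomatin gene, was at 5.13 and 28.7 in WT and 44.7 and 34.2 in KO, without overlap.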

How the data were processed

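UMI counts per gene and well were used as the authors deposited them. STAR 2.5.2b, Subread 1.4.6-p1, featureCounts and the mm10 build are named, per the submitters' processing notes, without their roles. Columns that name no mouse gene (70, holding 4.98e-05% of UMIs) were left out. The members and lists were chosen with earlier results of these data known. The text names all 7 members, the 3 genes most like each, and, of the 4 lists, genes past the test or otherwise the 3 of the highest mean level in the fraction. A gene that this rule names is not reported here.

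Wells were scaled to 10000 UMIs, and 2000 variable genes, 30 principal components and 15 neighbours gave Leiden clusters at resolution 1 (scanpy 1.11.5, leidenalg 0.10.2). Scrublet marked 27 wells, which were kept. Animals were the replicates. Sums were tested with edgeR 4.0.16 (TMM, filterByExpr, quasi-likelihood, adjusted p under 0.05), with DESeq2 1.42.0 as an alternative, and the scripts were tested on simulated counts. The SE beside an edgeR difference was derived from the test, as the absolute log2 difference over the square root of the quasi-likelihood F. NCM sums held 26447307 to 93816921 UMIs outside mt- and hemoglobin genes per animal, CM sums 13126144 to 58208202. Limits of 3 counts cover counting error only. The alternatives were another scaling, DESeq2, no filter on low counts, wells under 30% mt- UMIs, no doublets, each animal left out, wells weighted equally, at least 20000 UMIs, resolution 0.5 and no thinning. The level without the leading well and the count of wells with at least 10 UMIs were added after seeing the data. The labels do not say whether each named animal is 1 mouse or a pool, so p-values measure the spread between these sums. Python 3.11.15 and R 4.3.3 were used.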

Additional observations from a re-analysis of the deposited data

Results flagged for a closer look

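Of the 7 members, 4 had genotype differences of opposite sign in different classes, with every KO animal above both WT animals in 1 class and below both in another (log2, KO minus WT, edgeR). The same pattern was found in 16.1% of the 11081 genes tested in all 3 classes. Cav2 stood at 2.65 in fibroblast-like NCM wells and 1.81 in cardiomyocyte-like CM wells, and at -0.94 in endothelial-like NCM wells. Cavin2 stood at 0.89, 1.14 and -1.52 in the same 3 classes. Cav3 stood at -1.68 in fibroblast-like NCM wells, and at 2.13 in endothelial-like NCM wells and 0.15 in cardiomyocyte-like CM wells. Cavin3 stood at 1.55 in cardiomyocyte-like CM wells and at -1.22 in endothelial-like NCM wells. The fibroblast-like against endothelial-like difference had an adjusted p of 0.157 for Cavin2, 0.297 for Cav2 and 0.930 for Cav3 by edgeR's interaction test. The differences against the cardiomyocyte-like CM wells were not tested. For Cavin2 and Cav3 in fibroblast-like wells, and for Cav3 in cardiomyocyte-like CM wells, the groups overlapped once the leading well of each animal was left out. Cav3 was low in endothelial-like NCM wells, at 0.513, 3.89, 11.02 and 10.9 UPM in WT1, WT2, KO1 and KO2. Without each leading well it was at 0.361, 2.60, 6.71 and 5.36. In wells under 30% mt- UMIs the difference of Cavin3 turned in both classes, to -0.41 and 0.23, and those of Cav2 and Cav3 turned in cardiomyocyte-like wells, to -0.26 and -0.33.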

How the results depend on the processing

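No paired analysis was possible because WT1, WT2, KO1 and KO2 are named as different animals and the labels give WT and KO no shared number. For the counts of genes past the adjusted threshold (0 in every edgeR test, in the order NCM, CM, endothelial-like, fibroblast-like, cardiomyocyte-like, CM against NCM, fibroblast-like against endothelial-like), DESeq2 gave 611, 54, 320, 357, 104, 139 and 259. Without the filter on low counts the first 6 gave 262, 50, 206, 244, 108 and 68. Scaling by total UMIs moved the median log2 of all genes by 0.117 (CM) to 0.185 (endothelial-like) and gave 3 genes in CM wells and 1 in fibroblast-like wells. Leaving out 1 animal, with the lone animal assumed to vary like the other genotype, gave 0 to 1, 0 to 4, 0 to 40, 0 to 17 and 4 to 338 genes in the first 5 (338 without KO2). Of the member differences under an alternative, 301 kept their sign and side of the threshold, 7 newly passed it and 26 changed sign. In wells under 30% mt- UMIs these were Cav2 at -0.21 and Cavin3 at 0.38 in NCM wells, Cav3 at -0.40 in CM wells, Cavin3 at 0.23 in endothelial-like wells, and in cardiomyocyte-like wells Cav1 at -1.18, Cav2 at -0.26, Cav3 at -0.33, Cavin1 at -0.51 and Cavin3 at -0.41. Total-UMI scaling put Cav3 in NCM wells at 0.079, and no filter put Cavin1 in endothelial-like wells at -0.028. Over the animals left out, Cav3 ran from -1.30 to 0.61 in NCM, -0.65 to 0.61 in CM and -0.21 to 0.44 in cardiomyocyte-like wells, Cavin4 from -1.23 to 1.51 in NCM, -1.75 to 0.58 in CM, -4.05 to 6.05 in endothelial-like and -1.62 to 4.61 in fibroblast-like wells, Cavin1 from -0.028 to 0.057 in endothelial-like and Cavin3 from -0.53 to 0.039 in fibroblast-like wells. The cause was not tested. Of the levels by class, 4 moved by more than 1 SD when wells weighed equally, to 283.5 for Cavin3 and 8.88 for Cavin4 in all NCM wells, 424 for Cavin3 in fibroblast-like NCM wells and 125 for Cav3 in endothelial-like CM wells, and none did with at least 20000 UMIs per well, without marked doublets or, for the 49 that could be compared, at resolution 0.5. The levels of cardiomyocyte-like and endothelial-like CM wells could not be compared at resolution 0.5. There an unnamed cluster of 766 wells held 113, 133, 202 and 301 CM wells of WT1, WT2, KO1 and KO2. The cluster named cardiomyocyte held 35, 86, 3 and 41. Cluster 0 was matched by its number only, with 951 wells at that resolution against 693. Some Cavin4 levels in NCM classes rest on 1 or 2 UMIs.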
